A study of Mus musculus with 9 samples.

Results

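Hippocampal miRNAs of mice that had aspirated PM2.5 (fine particulate matter, here particles washed off filters of outdoor air) at either of 2 doses were set against those of mice that had aspirated saline. The array carried probes for 1247 mouse miRNAs, and 424 were compared, namely those called detected by the scanner software throughout 1 group or more; 395 of them were detected on all 9 arrays. The 3 saline arrays, the 3 arrays at 1 mg/kg and the 3 arrays at 5 mg/kg came from male C57BL/6 mice without any transgene, about 8 weeks old, which received oropharyngeal aspiration (liquid placed in the throat and drawn into the lungs) every other day for 4 weeks. The label of the control group names saline only, although the study also describes a vehicle control prepared from a clean filter. The study describes the saline and high-dose arrays as individual mice. For the low-dose arrays the labels give replicate numbers only, so the spread among those may be technical.

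MiRNAs are short RNAs that guide Argonaute proteins to messenger RNAs, mostly through pairing of the seed near the 5′ end, and lower the stability and translation of their targets. Family members with one seed tend to share targets, and in the hippocampus miRNAs tune neuronal identity, synaptic growth and plasticity. Each miRNA is cut from a hairpin with a 5p and a 3p arm, of which one usually accumulates more.

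Mature sequences in the RefSeq annotation of GRCm38.p6 were found for 348 of the 424 miRNAs, and for 19 of the 25 in which all 6 PM2.5 arrays lay on one side of all 3 saline arrays. The ones below are shown because the results turn on them, written 5′ to 3′ with the seed, bases 2 to 8, in capitals. The first 3 were lower after PM2.5 and carry alternating C and A, and miR-574-5p, which the study followed up, carries alternating G and U.
miR-466i-3p: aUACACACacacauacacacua
miR-467f: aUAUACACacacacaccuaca
miR-466q: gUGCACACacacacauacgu
miR-574-5p: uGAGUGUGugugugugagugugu
The next were also lower after PM2.5 without overlap, apart from let-7g-5p, whose arrays overlapped and which is printed to be read beside miR-3962 and miR-98-5p.
miR-681: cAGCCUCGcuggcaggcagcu
miR-706: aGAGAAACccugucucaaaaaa
miR-3962: aGGUAGUAguuuguacauuu
let-7g-5p: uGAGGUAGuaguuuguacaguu
miR-98-5p: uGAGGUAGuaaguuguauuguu
miR-29a-3p: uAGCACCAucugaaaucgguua
The last 4 were higher after PM2.5.
miR-376a-3p: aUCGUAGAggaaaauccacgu
miR-127-5p: cUGAAGCUcagagggcucugau
miR-381-3p: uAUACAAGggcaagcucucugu
miR-193a-3p: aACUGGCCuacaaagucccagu
Of these, miR-376a-3p (chr12:109723824-109723844), miR-127-5p (chr12:109592854-109592875) and miR-381-3p (chr12:109726870-109726891) lie on the plus strand of 1 imprinted region, and miR-127-5p lies inside the annotated span of Rtl1. The gene of miR-466i-3p (chr13:17747552-17747573, plus strand) lies inside the span of Cdk13, that of miR-467f (chr11:69635419-69635439, minus strand) inside Fxr2, that of miR-466q (chr3:28419988-28420007, plus strand) inside Tnik, and that of miR-574-5p (chr5:64970328-64970350, plus strand) inside the spans of both Tlr6 and Fam114a1. MiR-29a-3p (chr6:31062673-31062694) and miR-29b-1-5p (chr6:31063067-31063088) come from 1 locus on the minus strand. Exon and intron boundaries were not used here.

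All levels below are log2 values of the background-subtracted signal, summed over the probes of a miRNA and divided by the 75th percentile of the array, so that 0 stands for that percentile. The signal also depends on the probes of each miRNA, so an order of miRNAs by signal is one of brightness on the array and not of abundance. Between 410 and 436 miRNAs were detected per array, the 75th percentile ran from 492 to 614 signal units and 0 spots were saturated. All 9 brain and neuron markers (miR-124-3p, miR-9-5p and others) and all 3 oligodendrocyte markers were detected on all 9 arrays while liver miR-122-5p and the 4 embryonic stem cell markers were detected on 0 arrays. Muscle miR-1a-3p and miR-133a-3p were detected on all 9 arrays, and their changes of -0.04 and -0.13 did not pass the test. The 3 saline arrays and 1 mg/kg replicate 1 lay in row 1 of the first slide, 1 mg/kg replicates 2 and 3 and 5 mg/kg replicates 1 and 2 in row 2 of that slide, and 5 mg/kg replicate 3 in row 1 of the second slide, so that row and exposure overlapped in part.

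PM2.5 was followed by small differences, more of them lower than higher, and none passed correction over all 424 miRNAs. In the 3-group model of limma, with both doses weighted equally, 44 miRNAs (10.4%) differed from saline at an unadjusted p under 0.05, 30 of them lower (7.08%) and 14 higher (3.30%), and 0 (0%) at an adjusted p under 0.05. The lowest adjusted p was 0.104, for miR-709. In what follows a miRNA passed the test where its unadjusted limma p was under 0.05, which is no correction for the number tested. The two-sided exact permutation test over the 84 ways to choose 3 of 9 arrays, whose smallest possible p is 0.0119, gave an unadjusted p under 0.05 for 43 miRNAs (10.1%) and a lowest adjusted p of 0.348. Over all 424 miRNAs the pooled change ran from -0.75 to 0.64 with a median of -0.01, and it exceeded 1 in size in 0 of them.

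The balance of directions depended on the scaling. Without scaling, which moves the median of all changes to 0.10, 36 of the 39 miRNAs at an unadjusted p under 0.05 were higher, and under the software's total gene signal (median 0.13) 89 of 98 were, against 14 of 44 here. Single arrays mattered too, since the 44 became 22 without control replicate 1, 29 without 5 mg/kg replicate 2 and 80 without 5 mg/kg replicate 3.

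In 25 miRNAs (5.90%) all 6 PM2.5 arrays lay on one side of all 3 saline arrays, 18 of them lower (4.25%) and 7 higher (1.65%), and these are the ones shifted alike at both doses. Of the 25, 23 were also at an unadjusted p under 0.05 in limma. That p and the exact permutation p of each come from the same array values that picked the 25. They are therefore no separate support for them. The mean array signal of 17 of the 25 lay under the median of all tested miRNAs. The rule has a sharp edge: miR-677-3p, miR-3107-5p and miR-29a-3p are the members nearest to it, clearing the saline arrays by 3.18e-05, 0.00141 and 0.0028, while miR-1187, let-7a-1-3p and miR-99a-3p missed by -2.82e-05, -0.00436 and -0.00788. Leaving out an array can only keep or raise the number without overlap. That number grew to 54 without control replicate 2 or control replicate 3 and to 44 without 1 mg/kg replicate 1. It was 5 with normexp background correction and 22 without scaling, where 5 of the 25 still showed no overlap in each case.

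**Figure D1:**
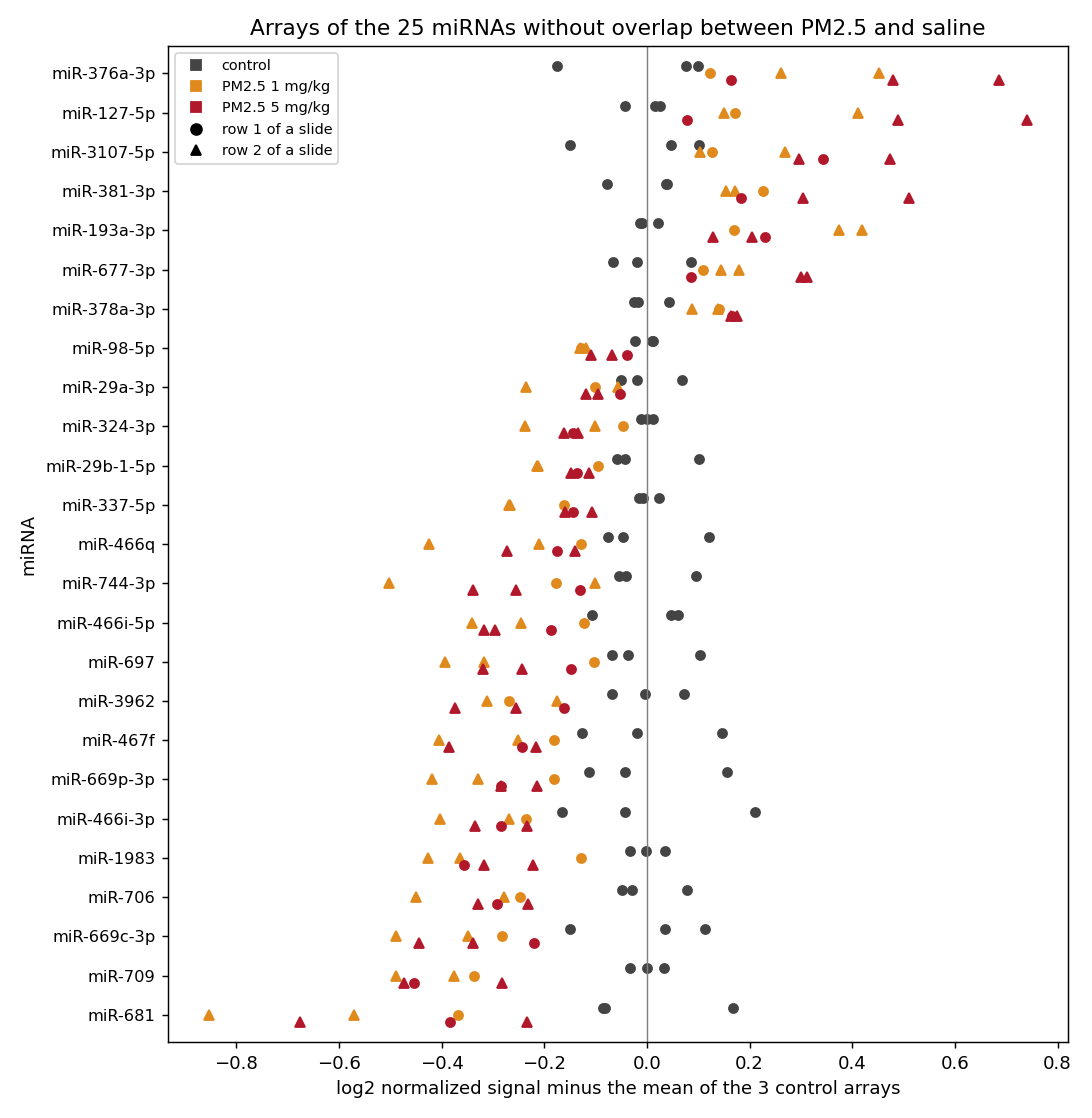
Each row is 1 of the 25 miRNAs without overlap, and each symbol 1 array, placed by its log2 normalized signal minus the mean of the 3 saline arrays; colour gives the group and shape the row of the slide. The 7 miRNAs at the top have all 6 PM2.5 arrays to the right of the saline arrays and the 18 at the bottom have them to the left, and the PM2.5 arrays of row 1 lie nearer to saline than those of row 2 in 24 of 25.

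MiR-709, known for its enrichment in the cell nucleus, was the most clearly lower miRNA. Its level was 1.79, 1.83 and 1.76 on the saline arrays and ran from 1.31 through a median of 1.38 to 1.51 on the 6 PM2.5 arrays. The groups were far apart, with the highest PM2.5 array still under the lowest saline array. The pooled change was -0.40 (SE 0.07), a 0.757-fold level (limma unadjusted p = 2.46e-04, adjusted p = 0.104; exact permutation p = 0.0119), and it was -0.40 at 1 mg/kg and -0.40 at 5 mg/kg. It was below 0 at an unadjusted p under 0.05 in all 26 alternative settings, with changes from -0.43 to -0.25 and adjusted p from 0.0215 to 0.998, of which 0.0215 came with normexp and 0.0418 with the PM2.5 arrays fitted as 1 group.

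MiR-681 had the lowest difference of the set and the dimmest signal. It was detected on 3 of 3 saline arrays and on 2 of 6 PM2.5 arrays, so part of its PM2.5 values rest on signals not called detected. It was compared only because of the saline group, where it was high, and such a filter favours a lower value after PM2.5. Saline arrays stood at -5.04, -5.29 and -5.29, and PM2.5 arrays between -6.06 and -5.44 with a median of -5.68. The pooled change was -0.51 (SE 0.13, adjusted p = 0.270).

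MiR-706, miR-1983 and miR-697 were lower by a similar amount. On the saline arrays miR-706 stood at -3.93, -3.82 and -3.95, and on PM2.5 arrays it ran from -4.35 through -4.19 to -4.13, a change of -0.30 (SE 0.07, exact permutation p = 0.0119). MiR-1983 had a difference of -0.30 (SE 0.08), its highest PM2.5 array at -4.36 lying under its lowest saline array. MiR-697 had a difference of -0.25 (SE 0.08, exact permutation p = 0.0238). In miR-706 and miR-1983 the direction turned under the total gene signal of the scanner software, where the changes were 0.15 and 0.01.

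MiR-3962 overlaps in sequence with the let-7 family, which holds back developmental growth programmes in mature cells. A run of 17 of its 20 bases is also found in let-7g-5p, and 14 in let-7i-5p. It stood at -3.49, -3.63 and -3.57 on the saline arrays and from -3.94 through -3.83 to -3.73 after PM2.5, a change of -0.26 (SE 0.07, exact permutation p = 0.0119; 1.97 under the total gene signal of the scanner software, where the sign turned). Its companion let-7g-5p had a difference of -0.11 (SE 0.10), which did not pass the test.

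MiR-98-5p, a let-7 family member, was the only one of the 10 tested miRNAs with its seed that showed no overlap. It stood at 0.79, 0.80 and 0.76 on the saline arrays, against 0.65, 0.67 and 0.74 as lowest, median and highest PM2.5 values. The change of -0.10 (SE 0.05) did not pass limma (unadjusted p = 0.0754) and had the smallest permutation p, 0.0119, and it was 0.01 without scaling. All 10 miRNAs with this seed had differences below 0 under the main scaling, as had 238 of all 424, with a median of -0.11. The median over the let-7 list was 0.00036 without scaling.

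The miR-29b-1 and miR-29a locus gave 2 of the 18. MiR-29 members are known regulators of collagens and of BACE1, the protease that starts amyloid β production. MiR-29a-3p stood at 5.98, 5.86 and 5.89 on the saline arrays and ran from 5.67 through 5.81 to 5.86 after PM2.5. Its highest PM2.5 array lay just under its lowest saline array, and the change of -0.11 (SE 0.06, limma unadjusted p = 0.110) was 0.0016 without scaling. MiR-29b-1-5p, the passenger arm, had a difference of -0.15 (SE 0.06, unadjusted p = 0.0341, exact permutation p = 0.0119). MiR-29b-3p and miR-29c-3p, with the seed of miR-29a-3p, had differences of -0.01 and -0.09 and overlapped with saline.

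The remaining miRNAs that were lower without overlap outside the repeat families were miR-744-3p at -0.25 (SE 0.10), miR-337-5p at -0.18 (SE 0.05) and miR-324-3p at -0.14 (SE 0.06). MiR-337-5p, encoded opposite Rtl1 in the imprinted Dlk1-Dio3 region, stood at -1.18, -1.19 and -1.15 on the saline arrays and from -1.44 through -1.34 to -1.28 after PM2.5. Its saline arrays differed by less than the gap to PM2.5, and the exact permutation p was 0.0119. MiR-324-3p turned to 0.01 under the total gene signal of the scanner software.

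Families of repeat-derived miRNAs supplied 6 of the 18 that were lower. The miR-669, miR-467 and miR-466 families, of which many copies lie in an intron of Sfmbt2, are largely made of UG and CA repeats. MiR-669c-3p stood at -4.71, -4.63 and -4.89 on the saline arrays and ran from -5.23 through -5.09 to -4.96 after PM2.5, a change of -0.35 (SE 0.08, exact permutation p = 0.0119). MiR-466i-5p, the family member with the brightest signal, stood at 0.05, -0.12 and 0.04 with saline and ran from -0.35 through -0.28 to -0.13 with PM2.5. The last of these arrays, 1 mg/kg replicate 1, came close to the lowest saline array, and the change was -0.25 (SE 0.07, exact permutation p = 0.0119).

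The other 4 were miR-466i-3p at -0.29 (SE 0.09), miR-669p-3p at -0.29 (SE 0.08), miR-467f at -0.28 (SE 0.08) and miR-466q at -0.23 (SE 0.08). MiR-669c-3p and miR-466i-3p turned to 0.15 and 0.14 under the total gene signal of the scanner software. Of the 16 tested members of these families 8 passed an unadjusted p under 0.05 lower and 1 higher, which is miR-466b-3p at 0.40. Over all tested miRNAs the shares were 7.08% lower and 3.30% higher. The median change of the 16 was -0.22 against -0.01 over all tested miRNAs. It was -0.11 without scaling and -0.15 with slide row as a block, where 1 of 16 passed. Of the 16, 9 had a change below 0 and 7 above 0, against 238 below and 186 above 0 over all 424 miRNAs.

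The probe targets on the array show the same letters. A stretch of at least 4 units of UG or GU, or of CA or AC, in a row was found in the probe targets of 16 of the 424 miRNAs (3.77%), of 6 of the 18 that were lower (33.3%) and of 0 of the 7 that were higher. This feature was looked for after the values were seen. Of the 16, 13 had a change below 0 and 11 passed an unadjusted p under 0.05 lower, with a median of -0.25. Over all tested miRNAs 238 of 424 had a change below 0 and 7.08% passed lower. Besides the 6 named above, the 11 include miR-574-5p, miR-3082-5p and miR-1187. Without scaling 0 of the 16 passed lower and the median was -0.14, and with the row block 1 passed and the median was -0.15. Of the 60 single probes of the 25 miRNAs with a value, 58 had the direction of their miRNA, which is largely fixed because the miRNA is the sum of its probes. The other 2 belong to miR-29b-1-5p, with differences of 1.34 and 0.02.

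**Figure D2:**
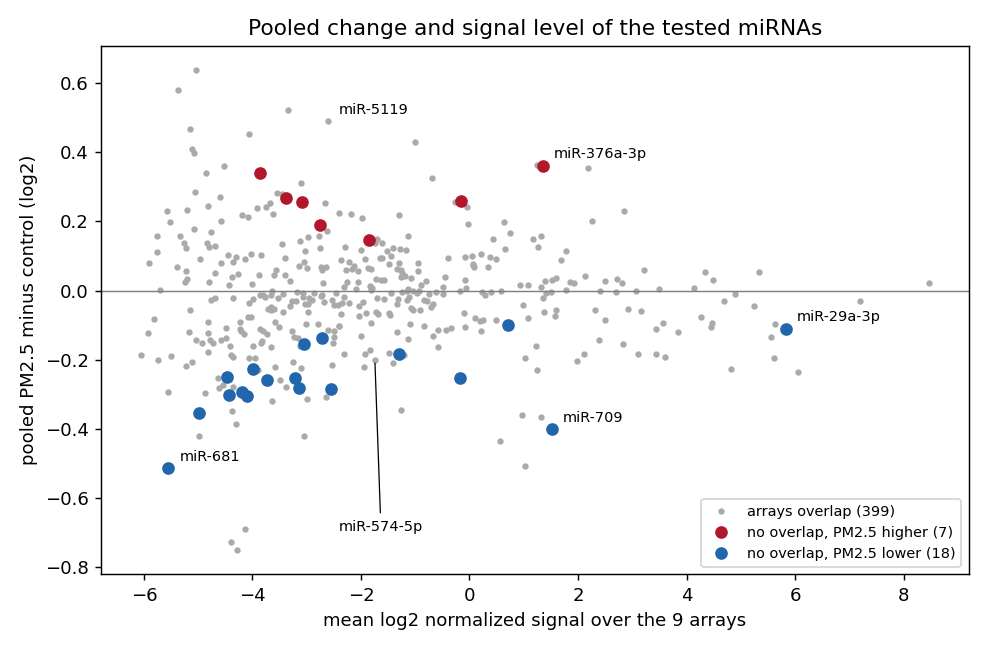
Each point is 1 of the 424 tested miRNAs, with its mean log2 normalized signal over the 9 arrays on the horizontal axis and the pooled change after PM2.5 (log2) on the vertical axis; coloured points are the 25 without overlap. Of the coloured points 17 of 25 lie under the median signal, while miR-29a-3p, miR-709 and miR-376a-3p lie to the right. Signal depends on the probes and is not abundance.

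Among the 7 miRNAs that were higher, 3 come from the Dlk1-Dio3 region, to which 57 of the 424 tested miRNAs belong. It is an imprinted cluster whose miRNAs are made from the maternal chromosome and are rich in neurons. MiR-376a-3p stood at 0.94, 1.20 and 1.22 on the saline arrays and ran from 1.24 through 1.48 to 1.81 after PM2.5. The lowest PM2.5 array came near the upper saline arrays, and the change was 0.36 (SE 0.13, adjusted p = 0.389; exact permutation p = 0.0238). MiR-381-3p stood at -0.40, -0.29 and -0.29 against -0.17, -0.12 and 0.18 as lowest, median and highest PM2.5 values, a change of 0.26 (SE 0.08, adjusted p = 0.270).

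MiR-127-5p, the arm opposite the abundant miR-127-3p and antisense to Rtl1, stood at -4.14, -4.08 and -4.07 with saline and ran from -4.02 through -3.80 to -3.35 with PM2.5. The change was 0.34 (SE 0.13), with an exact permutation p of 0.0476, and it was -0.02 with normexp background correction. MiR-127-3p of the same hairpin had a difference of 0.02 (SE 0.09), with overlapping arrays, and of -0.02 with quantile normalization. Over the 57 tested miRNAs of the region 4 passed an unadjusted p under 0.05 higher and 1, miR-337-5p, lower, which together is 8.77% against 10.4% of all tested. No overlap was found in 7.02% against 5.90% of all tested, so both shares were near those of all miRNAs. The median change was 0.06 against -0.01 over all tested, and it was -0.01 with the row block, where 0 passed.

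The other 4 higher miRNAs belong to different loci. MiR-193a-3p stood at -3.26, -3.26 and -3.23 on the saline arrays, which were close together, and ran from -3.12 through -3.03 to -2.83 after PM2.5. Its change was 0.26 (SE 0.07, adjusted p = 0.270; exact permutation p = 0.0238), and miR-193b-3p, with the same seed, had a difference of -0.07 (SE 0.22). MiR-378a-3p, a miRNA linked to energy metabolism, stood at -1.98, -1.91 and -1.97 against -1.87, -1.80 and -1.78, a change of 0.15 (SE 0.05, exact permutation p = 0.0119). MiR-677-3p had a difference of 0.19 (SE 0.07). With normexp background correction the changes were 0.04 for miR-193a-3p, 0.05 for miR-378a-3p and 0.03 for miR-677-3p, and none of them passed. MiR-376a-3p and miR-381-3p still passed there, at 0.34 and 0.20.

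MiR-3107-5p, later named miR-486b-5p and abundant in red blood cells and muscle, stood at -3.71, -3.46 and -3.52 on the saline arrays and ran from -3.46 through -3.28 to -3.09 after PM2.5. Its lowest PM2.5 array lay 0.00141 above the highest saline array, and the change was 0.27 (SE 0.08, exact permutation p = 0.0357). With normexp background correction the change was 0.03 and did not pass. The 6 blood markers did not include miR-3107-5p, and 1 of them, miR-486a-5p, was not on the array under that name. Of the 5 blood markers on the array, 0 passed the test, while miR-3107-5p, left out of them, did (limma unadjusted p = 0.00864). The changes of the 5 ran from -0.00247 for miR-150-5p to 0.24 for miR-144-3p. The log2 of their summed level was 1.88 to 2.16 on the saline arrays and 1.92 to 2.29 on the PM2.5 arrays, and the part of blood RNA in this result was not tested. In bulk tissue, fewer cells of a type and less RNA per cell cannot be told apart.

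The 25 miRNAs gave no difference between the doses that passed the test. At 5 mg/kg minus 1 mg/kg, 16 of all tested miRNAs (3.77%) were at an unadjusted p under 0.05, 1 (0.236%) at an adjusted p under 0.05, and 0 of the 25 at an unadjusted p under 0.05; the lowest p among them, for miR-3107-5p, was 0.0526. The 25 were picked from the same values for lying on 1 side of saline at both doses. At a share of 3.77%, moreover, few or none of 25 would pass. The count of 0 is therefore no separate support for a like change at both doses. The dose differences of the 25 ran from -0.13 to 0.21 with SE from 0.06 to 0.16, which does not show that the doses acted alike. In the higher set the change was larger at 5 mg/kg in 6 of 7, the exception being miR-193a-3p, with 0.32 at 1 mg/kg and 0.19 at 5 mg/kg. In the lower set it was larger at 1 mg/kg in 13 of 18. Both counts mean a higher level at 5 mg/kg, found in 19 of the 25, and it was also found in 288 of all 424 miRNAs, with a median of 0.04 for 5 mg/kg minus 1 mg/kg. Both dose groups share the saline arrays.

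The place on the slide moved with these results. In 24 of the 25 miRNAs, all but miR-378a-3p, the 2 PM2.5 arrays in row 1 lay nearer to the saline arrays, also in row 1, than the 4 PM2.5 arrays in row 2 did. How often this held over all 424 miRNAs was not counted, so it is not known to be particular to the 25. For the 18 lower miRNAs the median difference from saline was -0.18 in row 1 and -0.30 in row 2, and for the 7 higher ones 0.15 in row 1 and 0.28 in row 2. With the row as a block 5 of the 25 passed an unadjusted p under 0.05, all lower: miR-709 at -0.40 (SE 0.09), miR-706 at -0.27 (SE 0.09), miR-669c-3p at -0.25 (SE 0.10), miR-1983 at -0.24 (SE 0.10) and miR-3962 at -0.21 (SE 0.09). The 7 higher ones had changes of 0.10 to 0.23 and 0 passed. The signs stayed in 25 of 25, which the absence of overlap itself fixes, since this fit rests on the row 1 arrays. Over all 424 miRNAs the row block left 9 at an unadjusted p under 0.05. MiR-709 had nearly the same difference in both rows, -0.40 and -0.40.

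**Figure D3:**
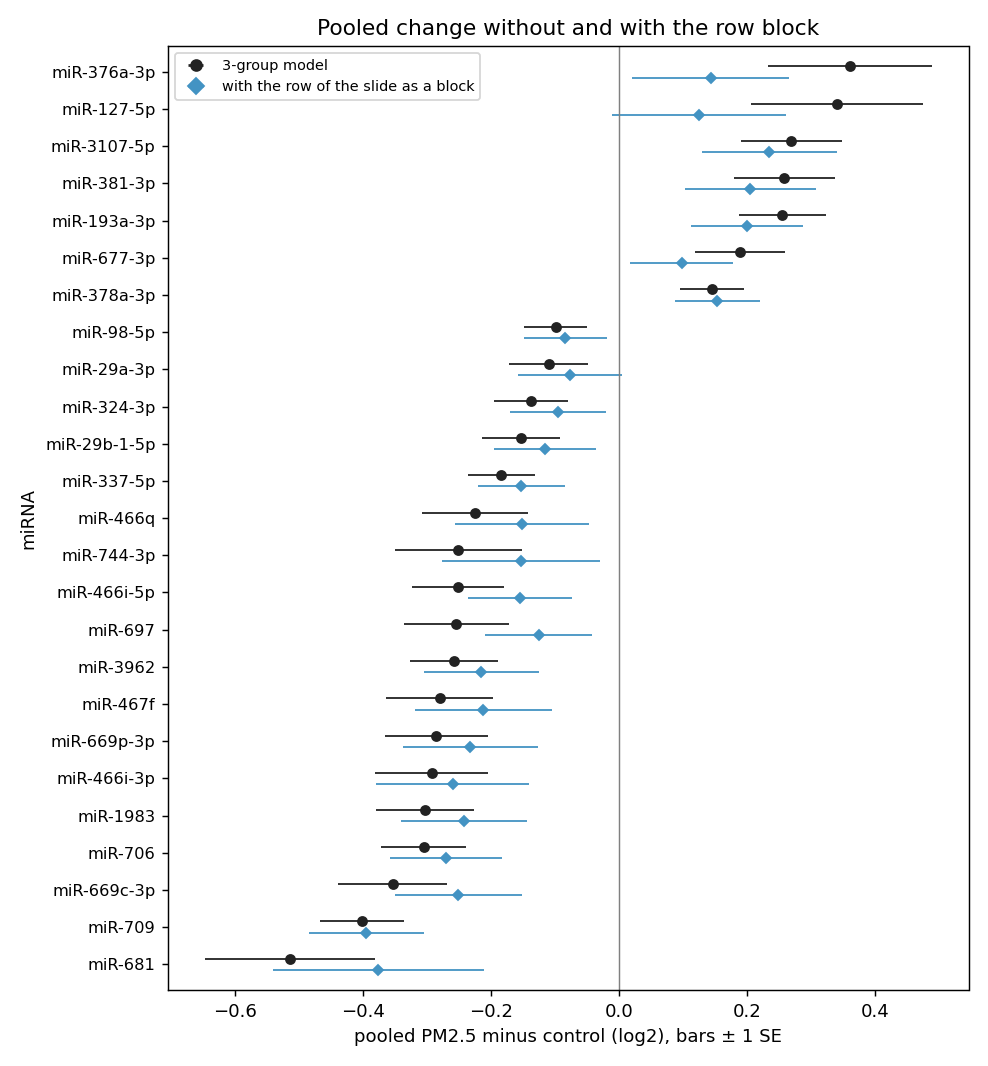
Each row is 1 of the 25 miRNAs without overlap, with its pooled change after PM2.5 (log2) as a point and 1 SE to each side, in the 3-group model (circles) and with slide row as a block (diamonds). The diamonds lie nearer to 0 than the circles for all but miR-378a-3p, and the bars are wider with the block for all but miR-376a-3p.

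MiR-574-5p, which the study followed up beside BACE1, was not among the 25. Its level was -1.60, -1.72 and -1.51 on the saline arrays, -1.68, -1.79 and -1.91 at 1 mg/kg, and -1.84, -1.86 and -1.77 at 5 mg/kg. Control replicate 2 lay under 1 mg/kg replicate 1, and the other 5 PM2.5 arrays were under all saline arrays. The pooled change was -0.20 (SE 0.07), a 0.871-fold level (limma unadjusted p = 0.0260, adjusted p = 0.389; exact permutation p = 0.0238), with -0.19 (SE 0.09) at 1 mg/kg and -0.21 (SE 0.09) at 5 mg/kg. It was -0.11 (SE 0.09, unadjusted p = 0.231) with the row block and -0.09 without scaling, and no longer passed in either, nor without control replicate 1, control replicate 3 or 5 mg/kg replicate 2. Its adjusted p ran from 0.129 to 0.999 over the 26 alternatives. The other arm, miR-574-3p, had a difference of -0.23 (SE 0.10, unadjusted p = 0.0473).

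**Figure D4:**
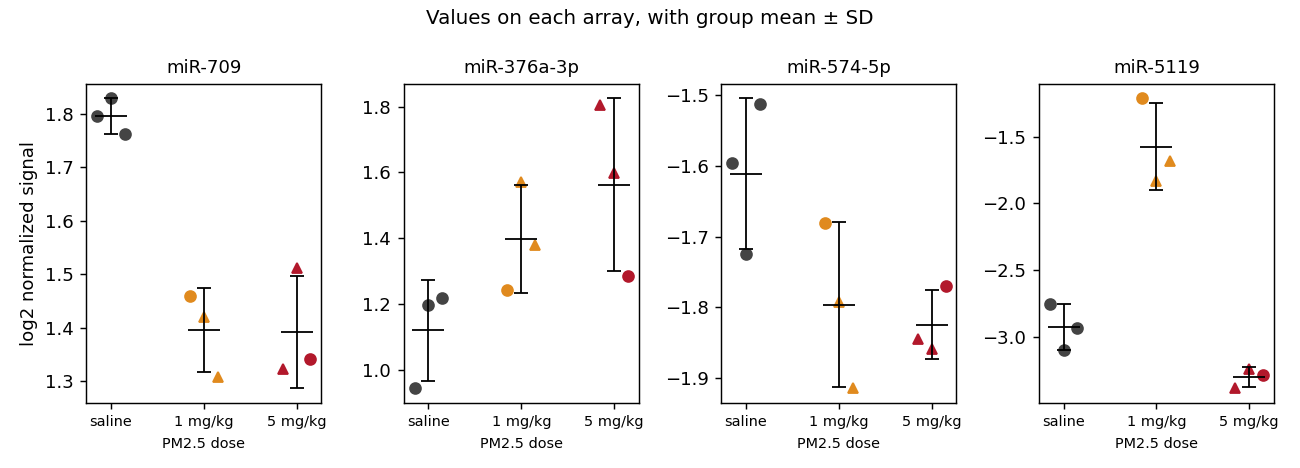
Each symbol is the log2 normalized signal of 1 array (circles in row 1 of a slide, triangles in row 2), with bars for the mean ± SD of the 3 arrays of a group; each panel has its own vertical axis, which does not start at 0. MiR-709 and miR-376a-3p differ from saline in the same direction at both doses, miR-574-5p shows 1 overlap, and miR-5119 is higher at 1 mg/kg and lower at 5 mg/kg.

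MiR-5119 differed between the doses. It stood at -2.75, -3.10 and -2.93 on the saline arrays, at -1.21, -1.83 and -1.68 at 1 mg/kg and at -3.39, -3.24 and -3.29 at 5 mg/kg. All 3 arrays of 1 mg/kg were above and all 3 of 5 mg/kg below the saline arrays. The pooled change of 0.49 (SE 0.14, adjusted p = 0.270) had an exact permutation p of 0.452, and 5 mg/kg minus 1 mg/kg was -1.73 (SE 0.16, adjusted p = 0.0013). The next lowest p of a dose difference was that of miR-708-5p, 0.37 (SE 0.11, adjusted p = 0.995).

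Lists of miRNAs by known role were read against the 10.4% of all tested miRNAs that passed, a share at which lists of this size hold few or no such members, so the counts below say nothing particular about a list. Without scaling the median of every list except the repeat families lay above 0, between 0.00036 and 0.47. In families described as targeting BACE1, such as miR-29, miR-328 and miR-298, 1 of 15, miR-29b-1-5p, was lower at an unadjusted p under 0.05, and the median change was -0.05. Both arms were counted, and this passenger arm does not have the seed of miR-29a-3p. Of the 3 miRNAs with that seed 0 passed. In families named for synapses and cognition (miR-34, miR-132, miR-137, miR-204 and others) 0 of 17 passed and the median was 0.13. With the row block that median was 0.005 and with normexp -0.01. These families share miR-204 and miR-211 with the choroid plexus list. Their member with the brightest signal, miR-9-3p, which is specific to neural tissue, had a difference of 0.03 (SE 0.08), and miR-204-3p, with the lowest p, one of 0.64 (SE 0.31) with detection on 6 of 9 arrays. Among 18 miRNAs of inflammation and NF-κB signalling 0 passed and the median was -0.02. MiR-125b-5p had a difference of 0.05 (SE 0.07) and miR-142-3p, a miRNA of blood-derived cells, one of 0.16 (SE 0.07, adjusted p = 0.492).

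All 14 members of the let-7 list had a change below 0 under the main scaling, as had 238 of all 424 miRNAs. Of the 14, 10 share 1 seed, so their signs may not be separate observations. The median of the list, -0.11, became 0.00036 without scaling. With the same 10.4% of all tested miRNAs as background, 1 of the 14 passed. That one was let-7a-1-3p, a passenger arm, at -0.28 (SE 0.09, adjusted p = 0.284), while let-7c-5p, the member with the brightest signal, had a difference of -0.19 (SE 0.13). In the miR-30 family 0 of 10 passed (median -0.04), with -0.15 (SE 0.11) for miR-30a-5p and -0.12 (SE 0.06) for miR-30d-5p. In the miR-15, miR-16 and miR-107 seed group 0 of 8 passed (median -0.11), with 0.06 (SE 0.05) for miR-103-3p and -0.43 (SE 0.28) for miR-497-5p. In the miR-17-92 cluster and its paralogs, which promote proliferation, 0 of 11 passed (median -0.03), with -0.11 (SE 0.08) for miR-106b-5p and -0.30 (SE 0.14) for miR-92b-3p.

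Markers of other cells were also read against that share of 10.4%. The blood and vessel wall list did not hold miR-3107-5p, which passed, and 0 of the 8 members of the list passed. The endothelial miR-126-3p had a difference of 0.03 (SE 0.07) and the smooth muscle miR-143-3p one of 0.22 (SE 0.10). In the oligodendrocyte list 0 of 4 passed, with -0.07 (SE 0.23) for miR-338-3p. In the choroid plexus list 0 of 5 passed, with a median of 0.35, which was -0.04 with the row block; miR-204-5p had a difference of 0.35 (SE 0.24). Of the 5 miRNAs with the brightest signals, which also include miR-29a-3p, miR-6366 had a difference of 0.02, miR-3963 one of -0.03, the neuronal miR-128-3p one of -0.23 (SE 0.11) and the neuronal miR-124-3p one of -0.10 (SE 0.08). None of these 5 passed, and miR-3963, miR-29a-3p and miR-124-3p had changes above 0 without scaling.

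**Figure D5:**
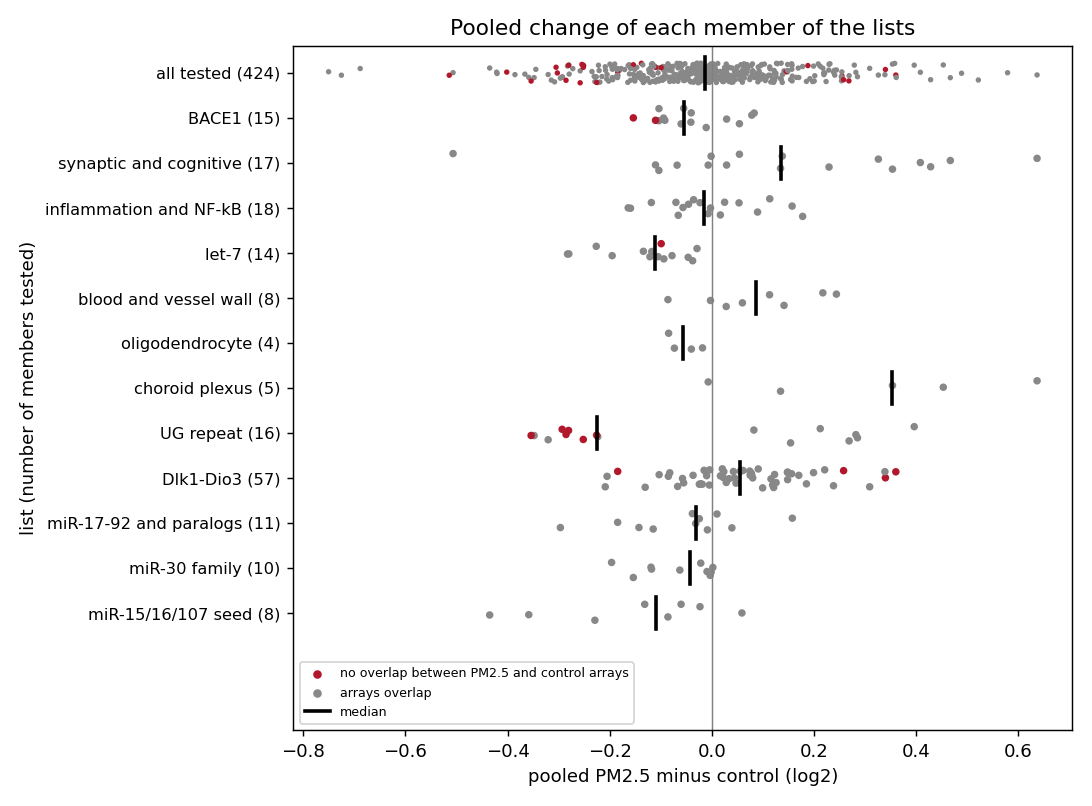
Each point is the pooled change after PM2.5 (log2) of 1 miRNA, in rows by list with the number of members tested, and the black bar is the median; red points are miRNAs without overlap. The repeat families (UG repeat) have a median of -0.22 and 6 red points on the left, and the Dlk1-Dio3 list has 3 red points on the right and 1 on the left.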

How the data were processed

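Total RNA of hippocampus was labelled with Cy3 and hybridized by the authors to Agilent mouse miRNA arrays (version 19), 9 arrays on 2 slides, and scanned with Feature Extraction 10.7. The deposited scanner files hold intensity per spot, background-subtracted and not normalized between arrays, and the authors also deposited a table of log2 values, whose normalization is not named in the sources used here; it served as an alternative. Here, outlier spots were dropped, spots of a probe averaged, probes of a miRNA summed, each array divided by the 75th percentile over miRNAs detected on all 9 arrays, values raised to the lowest detected signal of the array, and log2 taken. The 3-group model was fitted with limma 3.58.1 in R 4.3.3 (Benjamini-Hochberg over 424 miRNAs), beside a two-sided exact permutation test over 84 arrangements. In 20 simulations 40 of 424 miRNAs were changed by 1 log2 unit. Of these, 95.1% were recovered at an adjusted p under 0.05, and 5.04% of the others were at an unadjusted p under 0.05. The pooled changes here ran only from -0.75 to 0.64, and recovery of changes of that size was not tested. The number of arrays limits the precision. Replicate numbers were not taken as pairs, since deviations of same-numbered arrays correlated from -0.65 to 0.74.

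By rule, the text names miRNAs at an adjusted p under 0.05 (0), the 10 highest and 10 lowest differences among those without overlap and at an unadjusted p under 0.05, miR-574-5p, the member with the brightest signal and that with the lowest p in each of 12 lists, the 2 with the lowest p between doses and the 5 with the brightest signals. The remaining miRNAs without overlap, and a few others beside them, were named after their values were seen. The miRNAs and lists were chosen with earlier results of these data known. Marker lists of brain, oligodendrocyte, liver, muscle, pancreatic islet (miR-375-3p, detected on 3 arrays), embryonic stem cell, blood and choroid plexus were used for the tissue check. Alternatives were other summaries, background corrections, scalings, filters, models, blocks and each array left out. Sequences and positions are those of RefSeq on GRCm38.p6.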

Additional observations from a re-analysis of the deposited data

Results flagged for a closer look

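In 49 groups of 6 PM2.5 arrays, 1 for each named miRNA, a single array stood far from the other 5 in 2 cases, and chance gives about 1 in 20. For miR-29a-3p, 1 mg/kg replicate 2 was the lowest array at 5.67, with a gap to the nearest array of 0.64 of the range of the 6. For miR-143-3p, 1 mg/kg replicate 1 was the highest at -0.93, with a gap of 0.651 of the range. For miR-5119 the effect differed between the doses, 5 mg/kg minus 1 mg/kg being -1.73 on the log2 scale (limma, adjusted p = 0.0013).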

How the results depend on the processing

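All values rest on 3 arrays a group, and slide row and exposure overlapped in part. The 44 miRNAs at an unadjusted p under 0.05 became 98 with the total gene signal of the scanner software, 20 with normexp, 771 of 1247 without a filter (which adds miRNAs mostly at the floor of each array), 79 after weighting arrays by quality, 80 with slides as blocks (the same as leaving out 5 mg/kg replicate 3), 9 with slide row as a block, 8 in row 1 alone and 22 to 80 with each array left out. With the replicate number as a replicate block 44 passed, and 0 at an adjusted p under 0.05. That count of 0 became 2 with the total gene signal, 1 with normexp and 1 with the PM2.5 arrays as 1 group. The 25 without overlap became 58 with the total gene signal, 5 with normexp and 14 with the deposited log2 table. They became 56 in row 1 alone and 25 to 54 with each array left out. Fewer arrays can only keep or raise this count, and alternatives that alter only the model do not apply to it. For the dose difference, settings added after seeing the data gave, against 16, 9 with normexp, 35 after weighting arrays, 35 with slides as blocks and 8 to 35 with each array left out (8 without 1 mg/kg replicate 3, 9 without 5 mg/kg replicate 1, 10 without 1 mg/kg replicate 2, 35 without 5 mg/kg replicate 3). At an adjusted p, against 1, they gave 2 with the total gene signal, 0 with the deposited log2 table and 0 in row 1 alone. MiR-574-5p, at -0.20, no longer passed at -0.0518 with the total gene signal, -0.0877 without scaling, -0.20 without a filter, and -0.11 with slide row as a block or in row 1 alone, and it ran from -0.26 to -0.15 with each array left out. The causes were not tested.

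Signs turned in single miRNAs. With the total gene signal these were miR-669c-3p 0.15, miR-706 0.15, miR-1983 0.0056, miR-466i-3p 0.14, miR-3962 1.97, miR-29a-3p 0.0375, miR-29b-1-5p 0.0375, miR-338-3p 0.0745, miR-106b-5p 0.033, miR-30d-5p 0.0297, miR-3963 0.12, miR-124-3p 0.05, miR-324-3p 0.0098 and miR-98-5p 0.0486. With normexp they were miR-127-5p -0.0232 and miR-708-5p -0.0537. Without scaling they were miR-29a-3p 0.0016, miR-338-3p 0.0385, miR-3963 0.0803, miR-124-3p 0.014 and miR-98-5p 0.0127. Quantile normalization gave miR-127-3p -0.019 and miR-124-3p 0.0036, the deposited log2 table miR-127-3p -0.0677 and miR-124-3p 0.0047, array weights miR-6366 -0.0183 and slides as blocks miR-126-3p -0.0014. Slide row as a block and row 1 alone gave miR-9-3p -0.0268, miR-338-3p 0.15, miR-204-5p -0.0361, miR-127-3p -0.0005 and miR-3963 0.053. With each array left out, the ranges were -0.0097 to 0.0681 for miR-9-3p, -0.0022 to 0.067 for miR-126-3p, -0.23 to 0.0583 for miR-338-3p, -0.0258 to 0.0625 for miR-127-3p, -0.039 to 0.10 for miR-6366 and -0.10 to 0.0386 for miR-3963. Of the other values of single miRNAs, 1008 kept direction and side of the threshold, 139 kept direction and no longer passed, and 49 kept direction and passed anew.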

Other observations

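Markers of the choroid plexus, the tissue that makes cerebrospinal fluid and borders the hippocampus, and the miR-34b and miR-34c arms, which are abundant in ciliated cells, included most of the miRNAs that were lower at 5 mg/kg than at 1 mg/kg. These sets were noticed after the values were seen. Of the 5 tested choroid plexus miRNAs, 4 were lower at 5 mg/kg than at 1 mg/kg at an unadjusted p under 0.05, and 0 passed after adjustment (adjusted p = 0.995 for each). Of these 4, miR-204-3p was called detected on 6 arrays and miR-448-3p on 7 arrays. Part of their values therefore rest on signals not called detected. MiR-204-3p was detected on only 1 saline array, so it was compared only because of a PM2.5 group. Such a filter favours a group in which a miRNA was high, and so can favour a dose difference. Over all 424 tested miRNAs, 10 were lower at 5 mg/kg at that unadjusted threshold. MiR-204-5p stood at 1.57, 2.23 and 2.07 on the saline arrays, at 2.37, 2.73 and 3.08 at 1 mg/kg and at 1.78, 2.43 and 1.47 at 5 mg/kg. All 3 arrays of 1 mg/kg were above the saline arrays, and those of 5 mg/kg spanned them. The difference of 5 mg/kg minus 1 mg/kg was -0.83 for miR-204-5p, -0.89 for miR-204-3p, -0.59 for miR-211-5p and -1.62 for miR-448-3p, and -0.87 for miR-34b-5p, -0.88 for miR-34b-3p, -0.91 for miR-34c-5p and -0.97 for miR-34c-3p. The log2 of the summed choroid plexus markers was 1.62 to 2.29 on the saline arrays and 1.51 to 3.13 on the PM2.5 arrays, and how much choroid plexus each dissection held was not tested.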
